A study of Homo sapiens with 12 samples.

Results

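The mitochondrial rRNA and tRNA genes described here are 5 of the 32077 genes in the count table: MT-RNR1 (12S rRNA), MT-RNR2 (16S rRNA) and the tRNA genes MT-TF, MT-TL1 and MT-TP. They were selected by name with their counts in the 4 groups already known, so their levels, fold changes and ratios are given as a description without p-values. The RNA came from PC3 and DU145, established lines of human prostate cancer whose growth does not need androgen. Both were kept for 48 h in 2.5 μmol/L pentamidine, an aromatic diamidine used against protozoan parasites, or in sterile distilled water, the vehicle. The 12 samples form 4 groups of 3 (vehicle PC3, pentamidine-treated PC3, vehicle DU145 and pentamidine-treated DU145), and their RNA was captured with Oligo(dT) beads, which hold poly(A) tails, and copied with random primers. Libraries held 13514195 to 15131436 counts for vehicle PC3, 14086950 to 14791260 for pentamidine-treated PC3, 13798818 to 14906017 for vehicle DU145 and 13891795 to 14576040 for pentamidine-treated DU145. The labels number the replicates but do not say that they came from separate cultures, so errors and p-values measure only the spread between these samples. None of the 12 pairs of replicates was a duplicate: the chi-square per gene, near 1 for sampling noise alone, ran from 1.72 up to 7.3 between vehicle PC3 replicates 1 and 3.

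Some epithelial markers were low for cells of epithelial origin. Of 5 epithelial markers, EPCAM and KRT19 had at most 3 counts in any library and CDH1 at most 10. KRT18 had 2125 to 3085 counts in the libraries labelled PC3 and 9962 to 13423 in those labelled DU145, and KRT8 had 238 to 307 and 25835 to 38812. The summed level of the 4 leukocyte markers in the table was at most 0.661 CPM (counts scaled to a library total of 1000000), with CD14 the most abundant and PTPRC at 0 in all libraries labelled PC3. The summed level of the 5 fibroblast markers was at most 2.97 CPM and that of the 3 endothelial markers at most 1.16 CPM. The androgen-responsive prostate markers KLK3 and KLK2 had at most 3 counts in any library, and both lines are known to make no prostate-specific antigen, the product of KLK3. The methods describe the lines as bought from ATCC and checked by STR profiling, which reads DNA repeats and was not part of these files. The low EPCAM, CDH1 and KRT19 counts remain, their part in the results was not tested, and PC3 and DU145 below mean the libraries labelled so.

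Mitochondrial DNA is a small circle that is copied into long RNAs from a promoter on each strand. The transcript from the heavy-strand promoter starts just ahead of MT-TF and carries, in order, the tRNA for phenylalanine, 12S rRNA, the tRNA for valine, 16S rRNA, the tRNA for leucine MT-TL1 and then the mRNAs. Enzymes cut the tRNAs out, which frees the rRNAs and mRNAs between them. The rRNAs form the core of the small (12S) and large (16S) subunits of the mitochondrial ribosome and carry short A tails, while most mRNAs carry longer ones. MT-TP, the tRNA for proline, is read from the opposite strand at the far end of the circle, beside the control region.

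On GRCh38, with coordinates that match GENCODE release 29 for all 28 mitochondrial genes in the table, MT-TF (ENSG00000210049) lies at chrM:577-647 on the plus strand. MT-RNR1 (ENSG00000211459) follows with 0 bases between them at chrM:648-1601. A gap of 69 bases, which is the whole of MT-TV, a gene that the count table does not list, separates it from MT-RNR2 (ENSG00000210082) at chrM:1671-3229. MT-TL1 (ENSG00000209082) joins it at chrM:3230-3304 and is followed 2 bases later by MT-ND1. MT-TP (ENSG00000210196) lies at chrM:15956-16023 on the minus strand, and its lower coordinate is 15379 bases from the start of MT-TF. All 5 are exons without introns or UTRs. The sources used here do not state whether strand was used in counting, so reads from the opposite strand of any of these genes cannot be told apart from their own.

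The 2 tRNAs with counts to describe are shown first, from the GENCODE 29 transcripts, 5′ to 3′, with the anticodon in capitals, to show how short these targets are beside a 150-base read pair.
MT-TF: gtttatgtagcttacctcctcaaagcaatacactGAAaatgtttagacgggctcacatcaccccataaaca
MT-TP: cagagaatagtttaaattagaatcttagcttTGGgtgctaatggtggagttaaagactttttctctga

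The stretch around the longest run of A inside each rRNA (capitals) and its last 60 bases are shown next, because Oligo(dT) binds A and the tail is added at the end. They are on the plus strand, at chrM:958-1033 and chrM:1542-1601 for 12S rRNA and at chrM:2422-2498 and chrM:3170-3229 for 16S rRNA.
12S longest run of A: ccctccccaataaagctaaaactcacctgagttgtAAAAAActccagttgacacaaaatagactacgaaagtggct
12S end: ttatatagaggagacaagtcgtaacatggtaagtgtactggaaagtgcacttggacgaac
16S longest run of A: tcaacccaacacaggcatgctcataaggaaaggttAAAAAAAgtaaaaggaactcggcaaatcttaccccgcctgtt
16S end: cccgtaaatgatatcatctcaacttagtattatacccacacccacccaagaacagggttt

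The longest run of A was 6 bases in 12S rRNA and 7 bases in 16S rRNA. Among the mRNAs it ran from 3 bases in MT-ND4L and MT-ND6 to 8 bases in MT-ND5, so the rRNAs lay inside the range of the mRNAs. A made up 33.0% of 12S rRNA and 35.1% of 16S rRNA, and from 19.6% (MT-ND6) to 38.6% (MT-ATP8) of the mRNAs. Only MT-ATP8 was above the rRNAs, and the next highest mRNA was MT-ND2 at 31.3%, below both.

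12S rRNA had higher counts after pentamidine in both lines. The counts are of RNA captured with Oligo(dT), and the files used here measure neither rRNA by any means other than sequencing. By qPCR, which is not in these files, the paper reports both rRNAs as reduced. The reason for that difference was not tested. MT-RNR1 had 9284, 8979 and 7709 counts in vehicle PC3 samples and 78144, 76714 and 74203 in pentamidine-treated PC3 samples. It had 10457, 12036 and 11637 counts in vehicle DU145 samples and 59408, 57777 and 56297 in pentamidine-treated DU145 samples. Every treated sample lay above every vehicle sample, and the order of the group levels was pentamidine-treated PC3, pentamidine-treated DU145, vehicle DU145 and vehicle PC3. The mean level was 599.8 ± 33.0 CPM in vehicle and 5257 ± 219 CPM in pentamidine-treated PC3 samples, and 786 ± 31.7 and 4069 ± 179.6 CPM in those of DU145 (SD, n = 3 each). No neighbours in that order overlapped. The fitted log2 fold change was 3.15 (SE 0.053) in PC3 cells and 2.32 (SE 0.032) in DU145 cells, which is 8.88-fold and 5.0-fold. In bulk RNA a change in the RNA of each cell and a change in the number of cells that carry it cannot be told apart.

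16S rRNA, the longer of the pair, had higher counts as well, by less. MT-RNR2 had 52493, 55718 and 47133 counts in vehicle PC3 samples and 284414, 275906 and 283527 in pentamidine-treated PC3 samples. In DU145 cells it had 69570, 77731 and 79333 counts with vehicle and 198817, 199420 and 194138 with pentamidine. The groups were in the same order as for 12S rRNA and did not overlap. The mean level was 3588 ± 97.4 and 19359.7 ± 211 CPM in PC3 cells and 5221 ± 156 and 13891 ± 364 CPM in DU145 cells (SD, n = 3 each, vehicle first). The log2 fold change was 2.45 (SE 0.043) in PC3 cells and 1.36 (SE 0.027) in DU145 cells, or 5.47-fold and 2.57-fold.

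**Figure D1:**
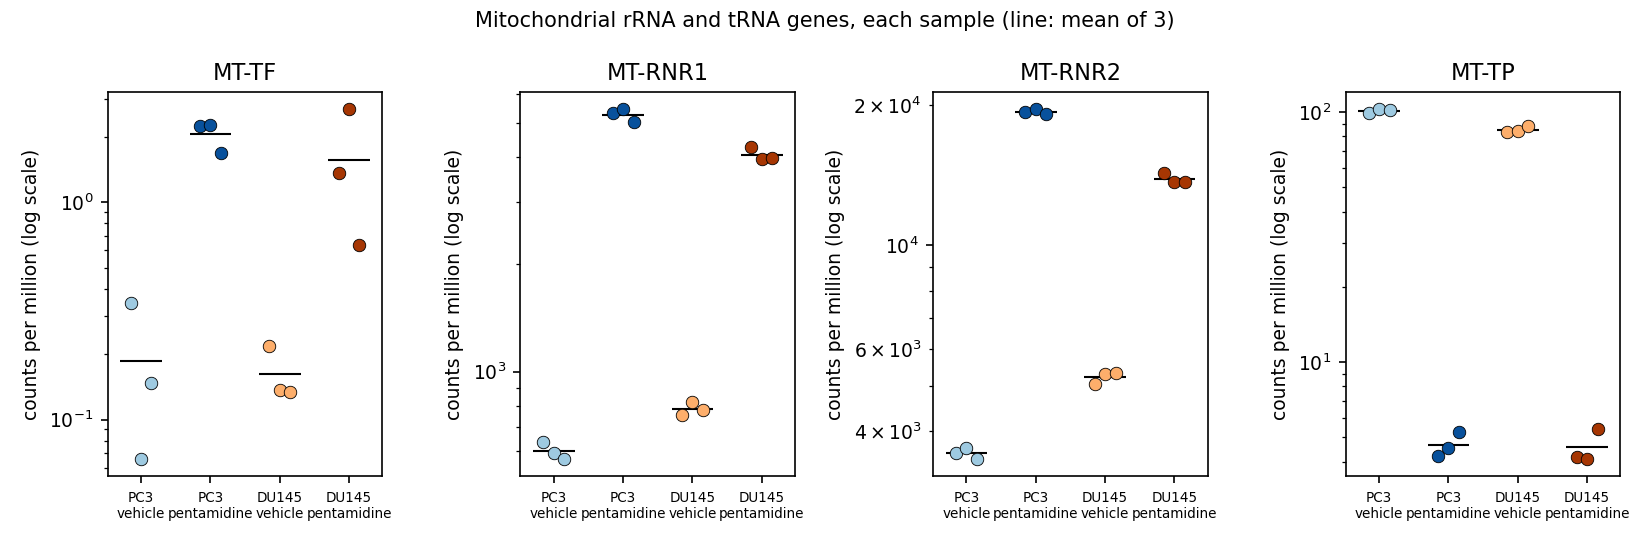
Level of MT-TF, MT-RNR1, MT-RNR2 and MT-TP in each of the 12 samples, in CPM on log axes that differ between panels, with a line at the mean of 3 samples. Treated samples lie above vehicle samples for MT-TF and both rRNAs and below them for MT-TP (101 against 4.68 CPM in PC3 cells).

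MT-TF, the gene nearest the promoter, had few counts but moved the same way as the rRNA beside it. It has 71 bases, and 0 bases separate it from MT-RNR1. Whether its counts come from the finished tRNA or from RNA that runs on into MT-RNR1 was not tested. MT-TF is therefore not read as a measure separate from MT-RNR1. It had 5, 1 and 2 counts in vehicle PC3 samples, 33, 32 and 25 in pentamidine-treated PC3 samples, 3, 2 and 2 in vehicle DU145 samples and 19, 39 and 9 in pentamidine-treated DU145 samples. The groups of each line did not overlap, and the treated DU145 samples were spread widely. The mean level was 0.185 ± 0.142 and 2.07 ± 0.328 CPM in PC3 samples and 0.163 ± 0.0474 and 1.56 ± 1.03 CPM in DU145 samples (SD, n = 3 each, vehicle first), and the lines did not differ beyond their spread. Pooled over a group, the CPM ratio of pentamidine to vehicle was 11.2 in PC3 cells (95% exact binomial interval 5.43 to 26.6) and 9.73 in DU145 cells (4.47 to 25.1). Vehicle counts were at or below the floor of 3 counts per library except in vehicle PC3 replicate 1, which had 5. The ratios therefore describe the pooled counts, and the size of the rise is not settled. Their intervals cover counting error only and do not allow for the selection of MT-TF on these samples. The fitted log2 fold change in PC3 cells was 3.44 (SE 0.45), or 4.21 without vehicle replicate 1 and 3.02 without vehicle replicate 2, and in DU145 cells its counts were too low for the fit.

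MT-TL1, the leucine tRNA at the boundary between 16S rRNA and MT-ND1, had 2 counts in all, 1 in a vehicle and 1 in a pentamidine-treated DU145 sample. It was at or below the floor of 3 counts per library in every group, so no fold change is given. The 10 other mitochondrial tRNA genes in the table had at most 3 counts in any library and 34 counts together over the 12 libraries. Of these, 8 were in vehicle PC3, 4 in pentamidine-treated PC3, 15 in vehicle DU145 and 7 in pentamidine-treated DU145 samples. GENCODE 29 lists 22 mitochondrial tRNA genes, of which 13 are in the count table.

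MT-TP differed from the other tRNA genes in having over 1000 counts in vehicle samples, and it moved the opposite way to the rRNAs. It had 1449, 1550 and 1381 counts in vehicle PC3 samples and 62, 64 and 78 in pentamidine-treated PC3 samples. In DU145 cells it had 1152, 1235 and 1307 counts with vehicle and 58, 60 and 77 with pentamidine. Treated samples of both lines lay below all vehicle samples, and the treated samples of the lines overlapped. The mean level was 101 ± 1.82 and 4.68 ± 0.543 CPM in PC3 samples and 85.1 ± 2.25 and 4.57 ± 0.74 CPM in DU145 samples (SD, n = 3 each, vehicle first), so vehicle PC3 was highest. The log2 fold change was -4.42 (SE 0.088) in PC3 cells and -4.27 (SE 0.084) in DU145 cells, or 21.3-fold and 19.2-fold lower. MT-TP has 68 bases, fewer than a read of 150, and whether its counts come from the finished tRNA was not tested.

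A gene was called when its log2 fold change passed 1 in size and its adjusted p was under 0.05 in edgeR's quasi-likelihood test (Benjamini-Hochberg). Of the mitochondrial rRNA and tRNA genes, 4 of 5 could be fitted in PC3 cells, MT-TF only through its treated samples. Over all 13861 genes tested in PC3 cells, 4.75% were called, 3.44% higher and 1.31% lower. In DU145 cells 3 of the 5 could be fitted. Over all 14313 genes tested in DU145 cells, 2.03% were called, 1.37% higher and 0.657% lower. Since the 5 genes were selected on these samples, no test of them is given.

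The responses of the lines differed in size for both rRNAs. The difference of the log2 fold changes, DU145 minus PC3, was -0.83 (SE 0.06) for MT-RNR1 and -1.09 (SE 0.05) for MT-RNR2. For MT-TP it was 0.15 (SE 0.15), about 1 standard error. For MT-TF it was -0.28 (SE 1.01) in the fit of all 12 samples. That rested on 8 vehicle counts in PC3 and 7 in DU145 cells, too few to show whether the lines differed. In vehicle samples the rRNAs were lower in PC3 than in DU145 cells, by 1.39-fold for MT-RNR1 (log2 difference -0.47, SE 0.048) and 1.54-fold for MT-RNR2 (log2 difference -0.62, SE 0.04). MT-TP was 1.13-fold higher in vehicle PC3 cells (log2 difference 0.17, SE 0.052).

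The ratio of 12S to 16S rRNA, each as counts per base of its gene, was higher after pentamidine in both lines. It was 0.289, 0.263 and 0.267 in vehicle PC3 samples and 0.449, 0.454 and 0.428 in pentamidine-treated PC3 samples. It was 0.246, 0.253 and 0.240 in vehicle DU145 samples and 0.488, 0.473 and 0.474 in pentamidine-treated DU145 samples. In both lines the treated samples lay above the vehicle samples, and each treated value was below 1, so that 16S rRNA kept more counts per base than 12S rRNA. The mean went from 0.273 ± 0.014 to 0.444 ± 0.014 in PC3 cells, a factor of 1.62, and from 0.246 ± 0.0067 to 0.479 ± 0.0084 in DU145 cells, a factor of 1.94 (SD, n = 3 each). The order of the lines thus changed, with PC3 higher among vehicle and DU145 higher among treated samples.

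**Figure D2:**
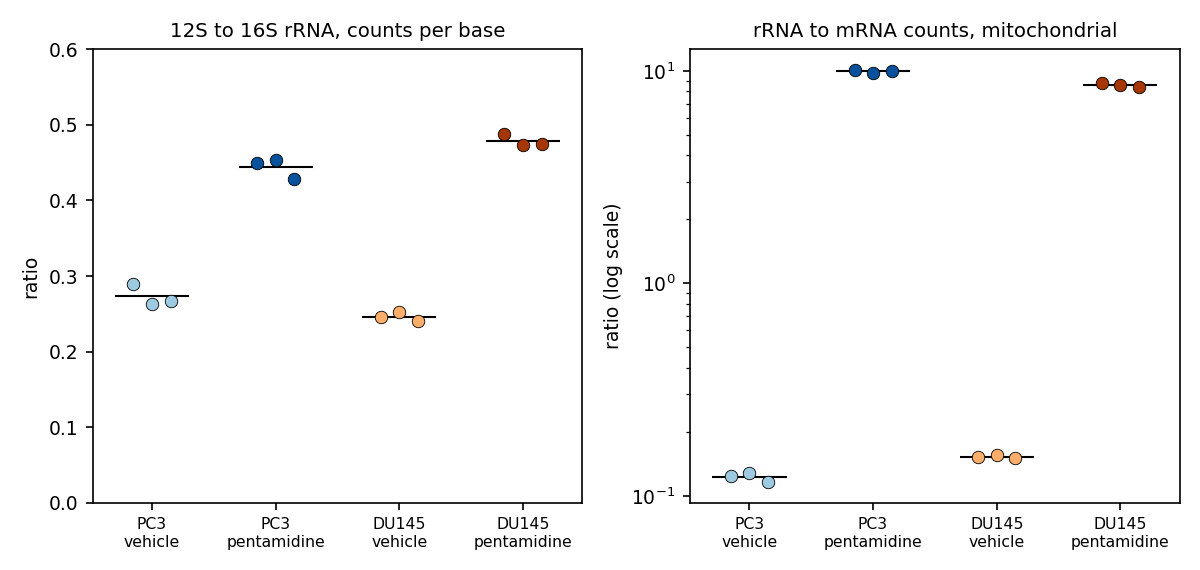
Ratio of 12S to 16S rRNA in counts per base (left, linear axis from 0) and ratio of rRNA to mRNA counts of the mitochondrial genome (right, log axis) in each sample, with a line at the mean of 3. Treated samples lie between 0.428 and 0.488 on the left and between 8.42 and 10.1 on the right, above all vehicle samples.

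The 13 mitochondria-encoded mRNAs, which code for subunits of the respiratory chain and ATP synthase, were all lower after pentamidine. The median of their log2 fold changes was -4.12 (PC3) and -4.84 (DU145), and they ran from MT-ND1 (-2.11 and -2.56) to MT-CO2 (-5.24 and -5.96). The ratio of summed 12S and 16S rRNA counts to summed mRNA counts was 0.122 ± 0.0058 in vehicle and 9.92 ± 0.17 in pentamidine-treated PC3 samples. It was 0.153 ± 0.0025 in vehicle and 8.58 ± 0.15 in pentamidine-treated DU145 samples (SD, n = 3 each). This is a factor of 81.0 in PC3 and 56.2 in DU145 cells. The rRNAs took 10.9% ± 0.46 of all mitochondrial counts in vehicle PC3 samples and 90.8% ± 0.14 after pentamidine, and 13.2% ± 0.19 and 89.5% ± 0.17 in DU145 samples. Of all counts, mitochondrial genes took 3.85% ± 0.061 in vehicle PC3 and 2.71% ± 0.049 in pentamidine-treated PC3 samples, and 4.54% ± 0.13 and 2.01% ± 0.058 in DU145 samples. The total thus fell while the rRNA part of it rose, from 0.419% ± 0.011 to 2.46% ± 0.042 in PC3 and from 0.601% ± 0.018 to 1.8% ± 0.054 in DU145 samples.

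Per length, 16S rRNA was the fifth of the 28 mitochondrial genes in vehicle samples of both lines and 12S rRNA the 15th, below all mRNAs except MT-ATP8. After pentamidine 16S and 12S rRNA ranked 1 and 2 in both lines. The level of 16S rRNA per length went from 2301 ± 62.5 to 12418 ± 135 CPM per kilobase in PC3 and from 3349 ± 99.8 to 8910 ± 234 in DU145 samples (SD, n = 3 each). MT-CO1, the highest gene per length in vehicle samples, went from 8504 ± 155 to 529 ± 6.01 in PC3 and from 8707 ± 117 to 444 ± 17.3 in DU145 samples. MT-TP, at 1489 ± 26.7 and 1252 ± 33.1 in vehicle PC3 and DU145 samples, was in the range of the mRNAs. MT-TF reached at most 37.7 CPM per kilobase in any sample. A gene shorter than a sequenced fragment can be undercounted per length, which limits this comparison for the tRNA genes.

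**Figure D3:**
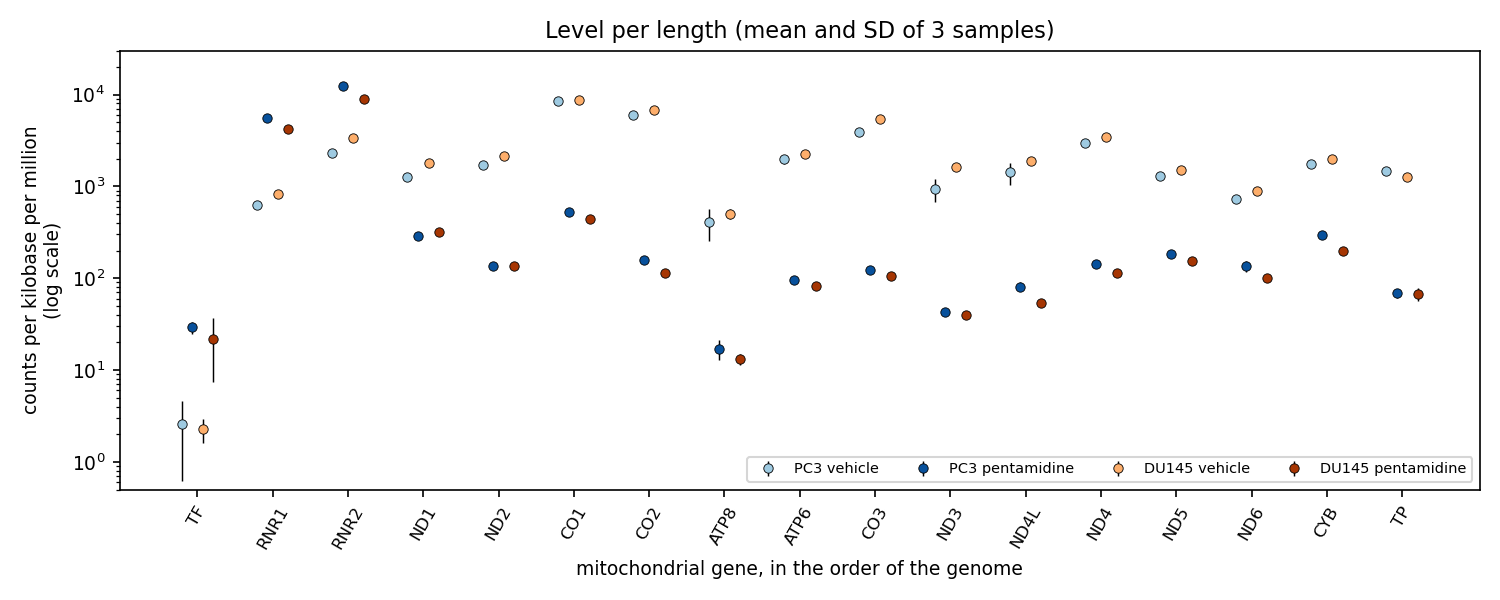
Level per length of the 17 mitochondrial genes with more than 5 counts in any sample, in the order of the genome, as CPM per kilobase (log axis), mean and SD of 3 samples in each of the 4 groups. Treated groups lie above vehicle groups for TF, RNR1 and RNR2 and below them for the 13 mRNAs and TP.

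Along the genome from the heavy-strand promoter, the sign of the response changed between 16S rRNA and MT-ND1, which starts 2730 bases from the start of MT-TF. Before that point the log2 fold change in PC3 cells was 3.44 for MT-TF, 3.15 for MT-RNR1 and 2.45 for MT-RNR2. These values were in falling order with distance, but MT-TF rested on few counts, not shown to be separate from those of MT-RNR1. Without vehicle PC3 replicate 2 it was 3.02, below the 3.13 of MT-RNR1 in the same fit, and without vehicle PC3 replicate 1 it was 4.21, so the order of these 2 genes is not settled. In DU145 cells it was 2.32 for MT-RNR1 and 1.36 for MT-RNR2. Counts per base of 16S rRNA were 1.84 ± 0.099 times those of MT-ND1 in vehicle and 43.5 ± 2.4 times in pentamidine-treated PC3 samples. In DU145 samples they were 1.86 ± 0.019 and 28.2 ± 0.63 times (SD, n = 3 each). Beyond MT-ND1 the response did not keep falling with distance. It was lowest for MT-CO2, 7009 bases from the start of MT-TF, and was smaller again at MT-ND5 (-2.79 and -3.32) and MT-CYB (-2.57 and -3.38), 11760 and 14170 bases away. The plus-strand genes share libraries and overlapping precursors and are not independent points, so no trend was tested.

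At the far end of the map, the minus-strand genes MT-ND6 and MT-TP had different responses. Their distance from the start of MT-TF is not a distance from the promoter of their own strand. The minus strand is read toward lower coordinates, so MT-TP comes before MT-ND6 on it. The log2 fold change of MT-ND6 was -2.41 in PC3 and -3.2 in DU145 cells, close to its plus-strand neighbours, while that of MT-TP was -4.42 and -4.27. Counts per base of MT-TP were 0.849 ± 0.054 times those of MT-CYB in vehicle and 0.235 ± 0.03 times in pentamidine-treated PC3 samples. In DU145 samples they were 0.633 ± 0.011 and 0.346 ± 0.077 times (SD, n = 3 each). The treated and vehicle samples of each line did not overlap in this ratio.

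**Figure D4:**
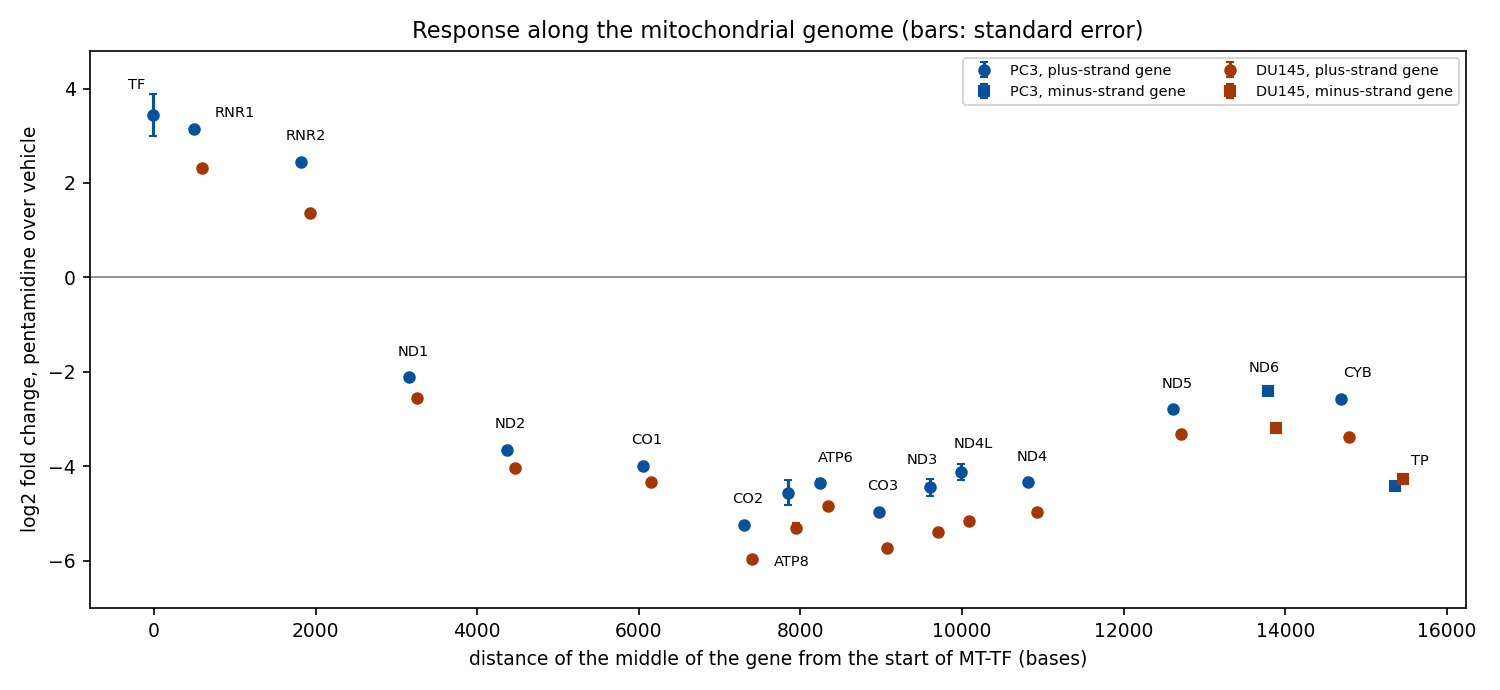
Log2 fold change of pentamidine over vehicle against the distance of the middle of each gene from the start of MT-TF, for PC3 and DU145 cells, with standard errors as bars (many smaller than the symbol) and squares for minus-strand genes. For the minus-strand genes this is not the distance from the promoter of their own strand. MT-TF was fitted in PC3 cells only, the values change sign between RNR2 (2.45 and 1.36) and ND1 (-2.11 and -2.56), and the lowest are at CO2.

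Classes of RNA that mostly lack a poly(A) tail were set beside the rRNAs. The 738 genes of small nuclear, small nucleolar and other such RNAs in the table together took 0.0135% ± 0.0021 of counts in vehicle and 0.0122% ± 0.0017 in pentamidine-treated PC3 samples, and 0.0139% ± 0.00086 and 0.0129% ± 0.00049 in DU145 samples. These ranges overlapped between treatments in each line, and SNORD101 was the most abundant of them. The 75 histone genes, most of whose mRNAs end without a tail, took 0.00896% ± 0.0003 and 0.0149% ± 0.00056 in PC3 samples and 0.0643% ± 0.0012 and 0.0452% ± 0.0024 in DU145 samples. They were thus higher with pentamidine in PC3 and lower in DU145 samples, while the mitochondrial rRNAs were higher in both. HIST1H2BK was the most abundant histone gene in PC3 samples and HIST1H1C in DU145 samples. Whether the counts of either class come from RNA without a tail was not tested, so they are no measure of what Oligo(dT) let through. The part of capture in the result for the rRNAs was not tested.

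Nuclear copies of the mitochondrial genes can share reads with the originals, and their counts are uncertain for that reason. The 7 nuclear copies of 16S rRNA in the table together had from 0.00772% to 0.04% of the count of MT-RNR2, depending on the group. MTRNR2L12 on chromosome 3 had 1, 3 and 5 counts in vehicle and 23, 26 and 17 in pentamidine-treated PC3 samples. In DU145 cells it had 4, 4 and 2 counts with vehicle and 17, 17 and 8 with pentamidine. It reached the fit in PC3 cells only through its treated samples, so no test of it is given. MTRNR2L10 on chromosome X had 17, 16 and 21 counts in vehicle and 57, 67 and 58 in pentamidine-treated DU145 samples (log2 fold change 1.72, SE 0.24), but at most 1 count in any PC3 sample. MTRNR2L10 can share reads with MT-RNR2, which was selected on these samples, so its fold change is a description and no test is given. Copies of the mRNAs were lower: in PC3 and DU145 cells the log2 fold change was -4.15 and -4.7 for MTATP6P1, -4.5 and -3.9 for MTCO1P12 and -3.74 and -4.02 for MTND2P28. MTND4P12, with 5 to 17 counts in vehicle PC3 samples, was lower in DU145 cells (log2 fold change -2.15, SE 0.37), and MTND5P11 had at most 15 counts in any sample. MTCO1P12 in both lines and MTND4P12 in DU145 cells reached the fit only through their vehicle samples, so their fold changes are a description only.

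Nuclear genes that make, cut, modify and carry these RNAs were described by 6 lists with 146 genes in the table, MRPL12 being in 2 of them. None of the 145 tested in PC3 cells and none of the 146 tested in DU145 cells passed both thresholds in edgeR, and the count was also 0 with an unadjusted p below 0.05 in place of the adjusted one and with DESeq2. At an adjusted p below 0.05 alone, 13 were higher and 41 lower in PC3 cells, and 15 higher and 35 lower in DU145 cells. Over all genes tested, 21.7% were higher and 21.7% lower at that threshold in PC3 cells, and 17.2% higher and 16.8% lower in DU145 cells. The largest absolute log2 fold change among the list genes was 0.58 in PC3 and 0.68 in DU145 cells, below those of both rRNAs. Of 108 medians of these lists under the alternatives, 12 had the other sign, all for the lists with medians of -0.012 (PC3) and 0.005, -0.034, -0.005 and -0.048 (DU145), from which no direction is read. For each list gene named below as higher or lower, 3 of 3 treated samples of each line lay on that side of the vehicle mean, except for MTERF3 in DU145 cells (1 of 3).

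Of the 9 genes of mitochondrial transcription, 1 was higher and 3 were lower in each line. The list's median log2 fold change was -0.19 (PC3) and -0.08 (DU145), beside 0.005 and 0.008 over all genes tested. TFAM, which packages mitochondrial DNA and starts its transcription, fell from 163 ± 14 to 119 ± 4.7 CPM in PC3 cells (log2 fold change -0.44, SE 0.06, adjusted p = 1.67e-05, edgeR). In DU145 cells TFAM fell from 140 ± 3.5 to 128 ± 4.5 CPM (-0.18, SE 0.04, adjusted p = 2.38e-04, edgeR). The paper reports no significant change in TFAM transcription in either line. The reason for that difference was not tested. POLRMT, the mitochondrial RNA polymerase, fell by 0.32 and 0.14 on the log2 scale (adjusted p = 2.36e-04 and 5.56e-03, edgeR). MTERF4, which takes part in assembly of the ribosome, rose by 0.21 and 0.24 (adjusted p = 4.29e-02 and 3.10e-02, edgeR). MTERF1, which binds inside MT-TL1, had log2 fold changes of -0.03 (SE 0.16) and -0.19 (SE 0.11) and did not pass in either line, with adjusted p of 9.03e-01 and 2.04e-01 by edgeR. With DESeq2 or the replicate block, 2 of the 9 were below 0.05 in PC3 cells instead of 4, as also without vehicle PC3 replicate 2 or without pentamidine-treated PC3 replicate 3. In all these cases the genes no longer below 0.05 were MTERF3 and MTERF4, the only one higher. Over all alternatives the adjusted p of MTERF4 in PC3 cells ran from 3.85e-02 (edgeR, at least 10 counts in every sample) to 2.20e-01 (edgeR, without pentamidine-treated PC3 replicate 2), so its rise there was not stable.

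Of 24 genes that modify the rRNAs or assemble the ribosome, 3 were higher and 8 lower in PC3 cells and 0 higher and 2 lower in DU145 cells, with medians of -0.012 and 0.005. FASTKD2, which binds 16S rRNA, fell by 0.23 in PC3 and 0.39 in DU145 cells (adjusted p = 9.80e-03 and 2.31e-08, edgeR). DHX30, an RNA helicase of ribosome assembly, fell by 0.24 and 0.19 (adjusted p = 8.31e-04 and 7.22e-06, edgeR).

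Of 23 genes that cut, finish, modify or charge mitochondrial tRNAs, 4 were higher and 6 lower in PC3 cells and 3 and 3 in DU145 cells, with medians of -0.077 and -0.034. TRMT10C, a part of the enzyme that cuts the 5′ end of tRNAs, fell from 33.9 ± 2.3 to 22.5 ± 1.4 CPM in PC3 cells (log2 fold change -0.58, SE 0.08, adjusted p = 2.84e-05, edgeR) and by 0.29 in DU145 cells (SE 0.06, adjusted p = 2.07e-04, edgeR). ELAC2, which cuts the 3′ end, fell by 0.39 and 0.28 (adjusted p = 3.91e-06 and 3.56e-10, edgeR). PARS2, which charges the tRNA of MT-TP, rose by 0.43 and 0.47 (adjusted p = 8.30e-03 and 1.98e-02, edgeR).

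Of 13 genes of tailing, stability and decay of mitochondrial RNA, 0 were higher and 6 lower in PC3 cells and 2 higher and 9 lower in DU145 cells, with medians of -0.109 and -0.198. Of the genes below 0.05 in both lines, the 3 with the largest mean change were FASTKD5, FASTKD3 and FASTKD1, which bind RNA. FASTKD5 fell by 0.56 and 0.34, FASTKD3 by 0.43 and 0.45 and FASTKD1 by 0.48 and 0.22 on the log2 scale in PC3 and DU145 cells. Their adjusted p ranged from 5.17e-06 (FASTKD5 in DU145 cells, edgeR) to 1.84e-02 (FASTKD1 in DU145 cells, edgeR). MTPAP, the poly(A) polymerase of mitochondria, had log2 fold changes of -0.33 (SE 0.09, adjusted p = 4.62e-03, edgeR) and -0.26 (SE 0.07, adjusted p = 3.31e-03, edgeR), and was looked up after its values were seen.

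The proteins of the mitochondrial ribosome are the partners of both rRNAs. Of 29 genes of the small subunit, which holds 12S rRNA, 3 were higher and 4 lower in PC3 cells and 5 higher and 3 lower in DU145 cells, with medians of -0.061 and -0.005. MRPS10 rose by 0.47 and 0.28 (adjusted p = 1.73e-05 and 1.15e-05, edgeR), MRPS33 by 0.3 and 0.32 and MRPS15 by 0.2 and 0.11. The remaining gene below 0.05 in both lines, MRPS34, was lower in PC3 (-0.23, adjusted p = 2.12e-02, edgeR) and higher in DU145 cells (0.16, adjusted p = 4.01e-03, edgeR). Of the large subunit, which holds 16S rRNA, 2 genes were higher and 14 lower of 48 in PC3 cells, and 4 higher and 15 lower of 49 in DU145 cells, with medians of -0.145 and -0.048. The DU145 count of 19 below 0.05 became 10 with DESeq2 and 12 with scaling by library size alone. That scaling moved the DU145 median of the list to 0.001 and that of all genes from 0.008 to 0.058. MRPL14 fell by 0.35 and 0.39 (adjusted p = 5.32e-03 and 1.06e-07, edgeR), MRPL15 by 0.38 and 0.2 and MRPL44 by 0.3 and 0.18. The PC3 counts moved most with vehicle replicate 1, without which 12 small-subunit and 27 large-subunit genes were below 0.05.

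**Figure D5:**
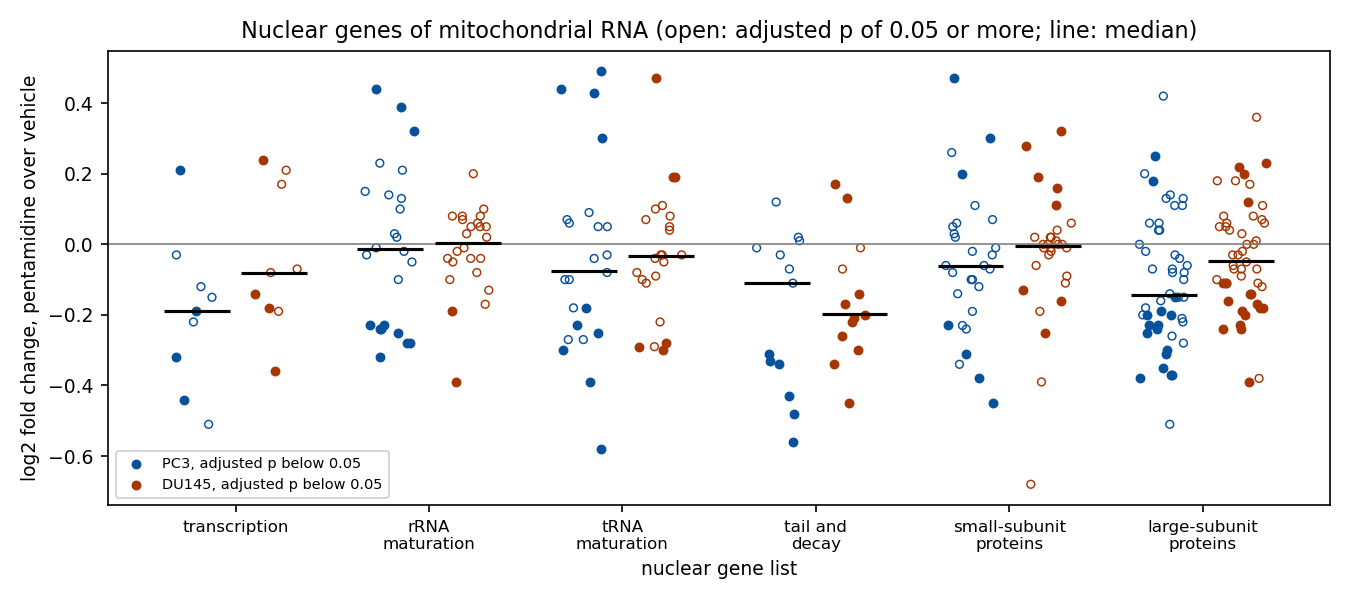
Log2 fold change of pentamidine over vehicle for each gene of 6 nuclear gene lists in PC3 and DU145 cells, filled where the adjusted p was below 0.05, with a line at the median of each list. The medians lie between -0.198 and 0.005, and no gene passes 0.68 in absolute value.

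By Pearson's r of log2 CPM over the 12 samples, among 15226 genes, those whose pattern was most like 12S rRNA were CARS (r = 0.996), ULBP1 (0.992), CIRBP (0.99), CEBPG (0.989) and EIF4EBP1 (0.988). Those most like 16S rRNA were SLC6A9 (0.993), ADM2 (0.991), CEBPG (0.99), PABPC1L (0.989) and EIF4EBP1 (0.989). CARS is the cytosolic cysteinyl-tRNA synthetase, CEBPG a bZIP transcription factor, SLC6A9 a glycine transporter and EIF4EBP1 a repressor of translation initiation. The 12 samples form 4 groups that share treatment and line, so they are not independent points. MT-TF, MT-RNR1, MT-RNR2, MT-TL1 and MT-TP were left out of the comparison, and no other mitochondria-encoded gene was among the genes named.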

How the data were processed

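The authors aligned reads to GRCh38 with HISAT2 2.1.0 and deposited whole-number counts per gene, not normalized. The counting program, its annotation and its use of strand are not given in the sources used here. The authors' comparison tables hold log2 fold changes and p-values made with DESeq 1.18.1 and were not used, nor was a table named for FPKM. Of 33595 entries with an Ensembl identifier, those alike in both name and counts were merged, leaving 32077 genes, and 44 broken lines were dropped.

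Counts were fitted with edgeR 4.0.16 in R 4.3.3 (quasi-likelihood test, TMM, filterByExpr at a minimum count of 10, Benjamini-Hochberg over all genes tested), each line with its 6 samples and the difference between lines with all 12. The SE was derived from that test, as the absolute log2 fold change over the square root of its F statistic. It is imprecise where both are near 0. CPM are counts scaled to a library total of 1000000, and r was computed on TMM-scaled log2 CPM with a prior count of 2. Summaries used Python 3.11.15. A count of 3 per library (0.198 to 0.222 CPM) was taken as the floor. The genes and lists were chosen with earlier results of these data known. Named were the 5 genes, the mitochondrial mRNAs, nuclear copies with a mean of at least 10 counts in a group, per list the genes called in either line and the 3 with the largest mean change (signed, so that opposite changes cancel) among those below 0.05 in both, and the 5 genes most alike in r. MTERF1, MTERF3, MTPAP and MRPS34 were named after their values were seen, and the nuclear copies were added to the comparison of lines after that of MTATP6P1 was seen. Alternatives were RLE scaling, library size alone, scaling without mitochondria-encoded genes, DESeq2 1.42.0, other filters, the replicate block, all 12 samples in one fit and leaving out each sample.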

Additional observations from a re-analysis of the deposited data

Results flagged for a closer look

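Among the named nuclear genes and nuclear copies, 5 had an adjusted p below 0.05 in edgeR's test of the interaction over all 12 samples. The share of all genes passing that test is not given here, so the count is not read as above the general rate. TFAM fell by 0.44 in PC3 and by 0.18 in DU145 cells on the log2 scale, a difference of 0.26 (SE 0.07, adjusted p = 1.39e-02, edgeR). TRMT10C fell by 0.58 and 0.29, a difference of 0.29 (SE 0.1, adjusted p = 4.77e-02, edgeR). MRPL15 fell by 0.38 and 0.2, a difference of 0.18 (SE 0.07, adjusted p = 4.79e-02, edgeR). MRPS34 fell by 0.23 in PC3 cells and was 0.16 higher in DU145 cells, a difference of 0.39 (SE 0.1, adjusted p = 4.38e-03, edgeR), and was named after its values were seen. MTATP6P1, a nuclear copy that can share reads with MT-ATP6, fell by 4.15 and 4.7, a difference of -0.55 (SE 0.19, adjusted p = 3.82e-02, edgeR). The nuclear copies were added to this comparison after that value was seen. For MT-ATP6 the difference was -0.48 (SE 0.09), so that of MTATP6P1 is not read as a separate nuclear result.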

How the results depend on the processing

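The spread of a value was taken as the SD between replicates, summed in squares over the groups compared. The 97 alternative log2 fold changes of MT-TF, MT-RNR1, MT-RNR2 and MT-TP, the 8 of their differences between lines and the 16 of the 12S to 16S ratio moved by less than that. Library size alone moved some by more than their standard error: the difference between lines to -0.76 for MT-RNR1 and -1.02 for MT-RNR2, and in DU145 cells MT-RNR1 to 2.37 and MT-RNR2 to 1.41. With single samples left out, MT-TF in PC3 cells ran from 3.02 to 4.21. Without MT-ND1 the rRNA to mRNA ratio was 11.2 in treated PC3, 0.16 in vehicle DU145 and 10 in treated DU145 samples.

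Among all genes, the adjusted p alone called 6010 in PC3 and 4860 in DU145 cells, where the fold threshold was dropped. Requiring 10 counts in every sample tested fewer genes and called 431 and 154. DESeq2 called 190 in DU145 cells; the cause was not tested. Leaving out single samples gave 654 to 741 and 293 to 319.

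Of 216 alternative values for the nuclear lists, 205 stayed within that spread (medians) or within 1.5 times (counts), and 10 moved. Of the 108 medians among them 12 changed sign, 1 of these (large subunit in DU145 cells) from a median larger than its spread. Apart from the scaling shift given below, the causes were not tested. The 4 transcription genes below 0.05 in PC3 cells became 2 with DESeq2 and 2 with the replicate block, and 2 to 4 with single samples left out. In DU145 cells the 19 large-subunit genes below 0.05 became 10 with DESeq2 and 12 with library size alone, which also gave medians of 0.045 for the small and 0.001 for the large subunit. It also moved the median of all genes, from 0.008 to 0.058. With single PC3 samples left out, the median of tailing and decay ran from -0.157 to -0.107, the small-subunit count from 5 to 12 and the large-subunit count from 11 to 27. Vehicle PC3 replicate 1 gave the values -0.157, 12 and 27 when left out.

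MT-TL1 and the other tRNA genes at or below 3 counts allow no comparison at this depth. Intervals and floors cover counting error only.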
